A study of Mus musculus with 4 samples.

Results

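The genes described here encode the cytosolic factors that start and elongate protein synthesis. They were chosen by symbol as the autosomal mouse genes whose names begin with Eif or Eef followed by a digit, without the eIF2 kinases (Eif2ak1 to Eif2ak4) and without pseudogenes, which left 60 of the 50600 annotated genes. All 60 are protein coding, and they lie on 18 chromosomes. RNA had been sequenced from T-helper 17 (Th17) cells, CD4 T cells that secrete interleukin 17, which were grown as primary cells from mice of strain C57BL/6NJ. The study has 4 libraries in 1 group, numbered as biological replicates 1 to 4, with 36298276, 40652146, 26953724 and 25847970 counted fragments. The labels call the assay total RNA-seq while the named library protocol is one for poly(A)+ RNA. They give the age as unknown, name no treatment and give all libraries the same donor identifier; a 2 hour tag stands in the names written in the count tables, with no word on what it refers to. Since no label says that the libraries came from separate animals or cultures, the SDs and p-values reflect the spread among these 4 libraries alone, which may be technical.

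The labelled cell type was set against lists of markers, in TPM (transcripts in 1000000, a level per exon length). All 5 genes of the T cell receptor complex and CD4 reached 1 TPM, with a summed level of 4759 to 5101 TPM. Of the 9 Th17 markers 6 did so, at a summed 37.8 to 57.6 TPM. Il17a stood at 5.65 ± 1.20 TPM (SD, n = 4), and the receptors Ccr6 and Il23r rested on 15 and 11 counts in all. The 2 CD8 genes summed to 21.2 to 31.2 TPM. Nearly all of this was Cd8b1, at 27.0 ± 4.86 TPM above each single Th17 marker, while Cd8a had 32 counts in all. The 4 B cell markers summed to 0.392 to 1.86 TPM and the 5 myeloid markers to 0.749 to 1.42 TPM, and all 5 erythroid genes had 0 counts.

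Translation starts when a small ribosomal subunit loaded with initiator tRNA is recruited to the capped end of an mRNA and scans to a start codon. eIF2 delivers the initiator tRNA, eIF3 holds the subunit to the cap complex, and the cap complex itself is built from the cap binding protein eIF4E, the scaffold eIF4G and the helicase eIF4A. eEF1A then brings each aminoacyl tRNA to the ribosome and eEF2 moves the ribosome along. In T cells, activation is known to raise protein synthesis quickly, in part through mTOR signalling to the cap complex, while phosphorylation of the alpha subunit of eIF2 is known to lower initiation.

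The translation factors stood among the more abundant transcripts of these cells. Of the 60 genes 57 had a mean of at least 1 TPM, against 45.2% of protein coding genes, and 32 had a mean of at least 100 TPM, against 7.61%. The median gene of the 60 stood at 7.04 ± 0.10 on the log2(TPM + 1) scale, and the median protein coding gene at 0.34 ± 0.03 (SD, n = 4 libraries). Together the 60 genes took 3.00, 3.11, 2.69 and 3.18% of the counts in replicates 1 to 4. The larger part of their summed TPM, 55.3 ± 1.41%, belonged to the 2 elongation factor genes Eef1a1 and Eef2. The 3 genes below 1 TPM were Eef1a2, the form of eEF1A known from neurons and muscle, Eif4e1b, a relative of eIF4E known from oocytes, and Eef1akmt3, a lysine methyltransferase of eEF1A. All 3 were at 0 counts in each library, and a count of 0 leaves room for 0.0738 to 0.116 CPM (counts per 1000000 counted fragments), counting error only.

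**Figure D1:**
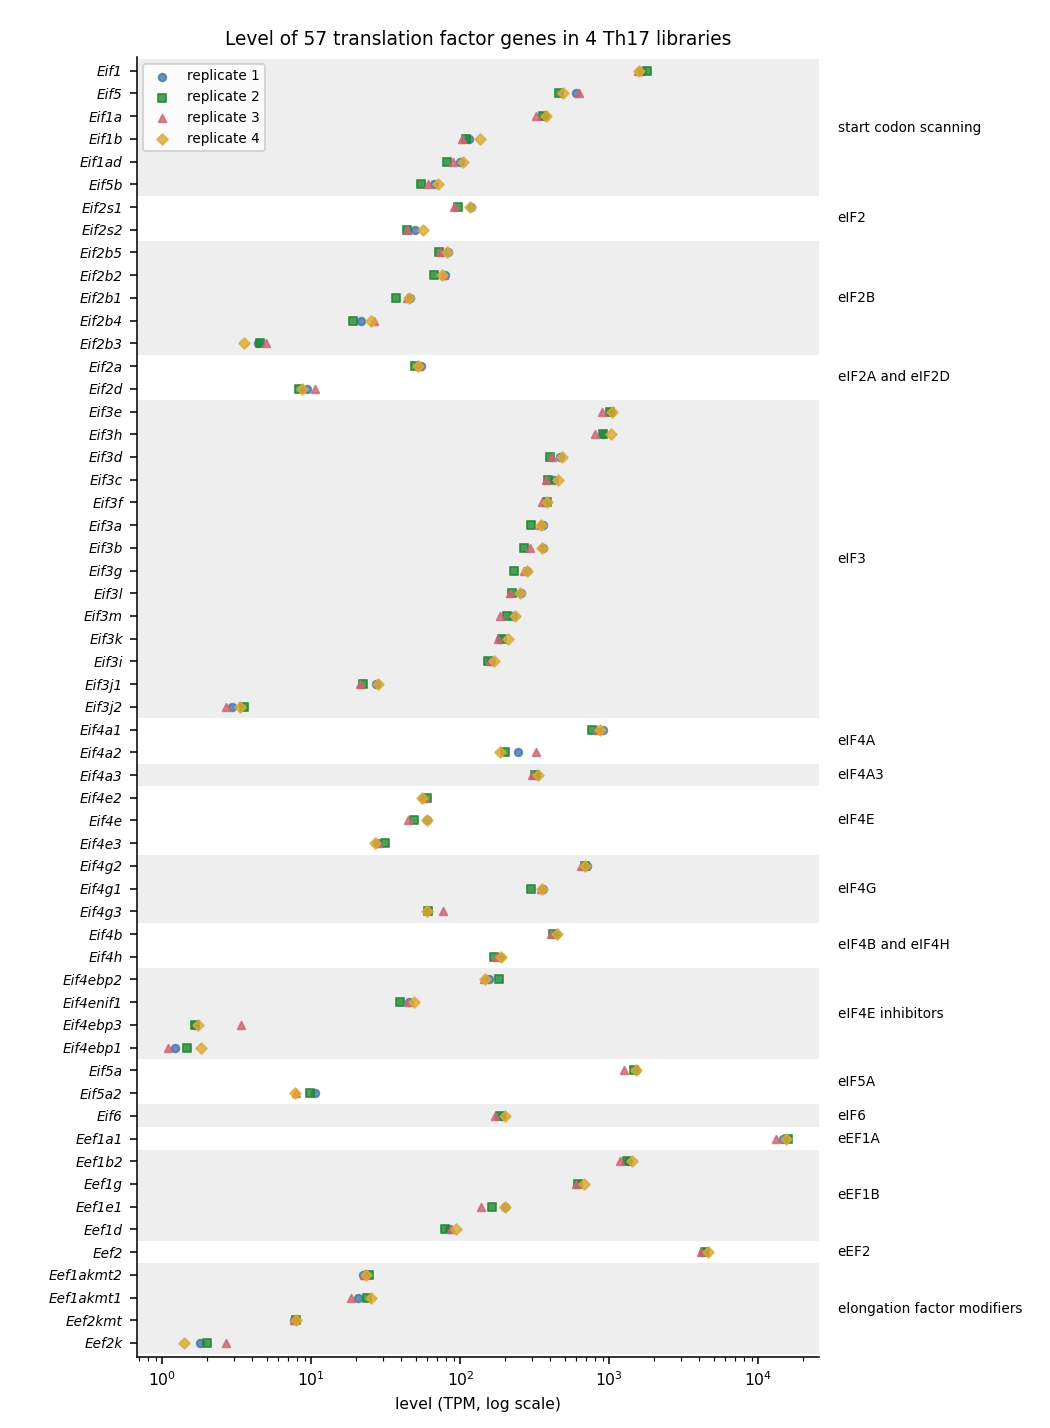
Level of each translation factor gene with counts, in TPM on a log axis, with genes in rows grouped by role and 1 point per library. Eef1a1 lies farthest right at 13177 to 15785 TPM, and the points of most genes lie close together compared with the distance between genes; Eif4ebp1, Eef2k and Eif4ebp3 lie farthest left with Eif3j2.

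Promoter sequence was searched for 3 short motifs, since several translation factor genes are known targets of MYC, which binds the E-box CACGTG. RefSeq windows from 250 bases before to 50 after an annotated start, on assembly GRCm38.p6, were found for 44 of the 60 genes. An E-box stood in a window of 12 of the 44 (27.3%), in 12.3% of the other protein coding genes of at least 1 TPM and in 8.09% of all genes with a window. The ETS motif CCGGAAG, on either strand, stood in 15 of 44 (34.1%), in 23.4% of the other expressed genes and in 9.93% of all. The cyclic AMP response element TGACGTCA, which reads the same on both strands as the E-box does, stood in 1 of 44, the gene Eef2, in 4.02% of the other expressed genes and in 2.03% of all. In 6 genes 7 E-boxes lay before the start and outside the annotated gene, and these are printed 5′ to 3′ on the strand of the gene with the E-box in capitals. They span the range of levels, from Eef2 at 4347 TPM to its kinase gene Eef2k at 1.96 TPM. A match is a description of the letters, and binding was not measured.
Eef2, chr10:81176576-81176605, plus strand, 43 bases before the start: acccggcgccgtCACGTGacgcacccaacc
Eif4a1, chr11:69672595-69672624, minus strand, 189 bases before the start: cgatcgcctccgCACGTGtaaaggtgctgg
Eif3f, chr7:108934335-108934364, plus strand, 68 bases before the start: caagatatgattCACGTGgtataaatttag
Eif3k, chr7:28981915-28981944, minus strand, 44 bases before the start: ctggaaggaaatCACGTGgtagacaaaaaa
Eif5a2, chr3:28781123-28781152, plus strand, 142 bases before the start: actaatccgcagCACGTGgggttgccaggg
Eif5a2, chr3:28781148-28781177, plus strand, 117 bases before the start: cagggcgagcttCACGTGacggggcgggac
Eef2k, chr7:120842788-120842817, plus strand, 31 bases before the start: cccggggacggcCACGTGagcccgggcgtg

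Of 6 genes listed together under start codon scanning, Eif1, which guards start codon selection, was the most abundant at 1665, 1776, 1553 and 1586 TPM in replicates 1 to 4. Its close relative Eif1b stood at 115, 109, 103 and 134 TPM. Eif1 exceeded Eif1b in all 4 libraries, by 11.8 to 16.4 times, and held 93.4 ± 0.880% of their summed TPM. With the length of the coding transcripts in place of all annotated exons the mean was 21.1 times. Of the 31-base words in transcripts of Eif1, 23.0% also occur in transcripts of other genes, so its level is uncertain. Eif5, which triggers GTP hydrolysis on eIF2 once the start codon is found, stood at 541 ± 79.6 TPM and Eif1a, a scanning factor, at 355 ± 24.0 TPM. Eif1ad, which carries a domain like that of eIF1A, stood at 93.3 ± 9.98 TPM. Eif5b, the GTPase that joins the large subunit, was the lowest of these 6 at 63.1 ± 6.77 TPM.

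eIF2 is the complex that carries the initiator tRNA, and 2 of its subunits are encoded by autosomal genes. Eif2s1, the alpha subunit that stress kinases phosphorylate, stood at 118, 95.6, 91.1 and 117 TPM, and Eif2s2, the beta subunit, at 49.4, 43.7, 43.5 and 56.3 TPM. Eif2s2 lay below Eif2s1 in all 4 libraries, by -1.11 ± 0.09 on the log2(TPM + 1) scale. With the length of the coding transcripts in place of all annotated exons the difference was -0.19, so its size rests on the exon model. The alternative tRNA delivery and reinitiation factors Eif2a and Eif2d stood at 52.2 ± 1.89 and 9.17 ± 1.03 TPM.

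eIF2B, the exchange factor that recharges eIF2 with GTP, has 5 subunits, and their levels were unequal. Eif2b5, the catalytic epsilon subunit, stood at 83.1, 72.2, 73.1 and 81.5 TPM and Eif2b2, the beta subunit, at 78.7, 66.8, 77.1 and 75.2 TPM. These leading subunits overlapped, and Eif2b5 was the higher one in 3 of 4 libraries. Eif2b1, the alpha subunit, followed at 42.9 ± 4.08 TPM and Eif2b4, the delta subunit, at 23.0 ± 3.30 TPM. The lowest was Eif2b3, the gamma subunit, at 4.35, 4.49, 4.94 and 3.53 TPM. From Eif2b2 down, the ranges of neighbours in this order did not overlap. The highest subunit exceeded the lowest by 18.5 ± 3.43 times (SD, n = 4), and by 5.47 times with the length of the coding transcripts, since the annotated exons of Eif2b3 span 6520 bases.

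eIF3 is the largest initiation factor, and the 14 genes of its subunits summed to 4865 ± 348 TPM. Eif3e led at 1021, 1007, 887 and 1037 TPM, and Eif3h followed at 911, 908, 801 and 1022 TPM. Eif3e was the higher of these in all 4 libraries although their ranges overlapped. Next came Eif3d, a subunit that can itself bind caps, at 438 ± 41.1 TPM and Eif3c at 411 ± 36.3 TPM. Eif3f stood at 374 ± 13.7 TPM, and Eif3a, the scaffold of the complex, at 338 ± 28.2 TPM. Eif3b stood at 317 ± 45.9 TPM. Apart from Eif3j1 and Eif3j2, the remaining subunits were Eif3g (263 ± 24.8 TPM), Eif3l (236 ± 20.2 TPM), Eif3m (212 ± 21.5 TPM), Eif3k (191 ± 11.99 TPM) and Eif3i (161 ± 6.42 TPM). Ranges of neighbours overlapped from Eif3d down to Eif3k, so that stretch of the order is not resolved by range, although the higher neighbour was above the next in 4 of 4 libraries for each step except Eif3a over Eif3b, where it was so in 3.

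The loosely bound subunit eIF3j has a pair of genes in the mouse, and both lay far below the other subunits. Eif3j1 stood at 27.2, 22.3, 21.2 and 27.8 TPM and Eif3j2 at 2.92, 3.51, 2.66 and 3.32 TPM. The 12 other subunits lay within 6.16 ± 0.392 times of each other, and all 14 within 321 ± 27.0 times. Of the 31-base words of Eif3j2, 94.9% also occur in transcripts of other genes, chiefly of Eif3j1, where 38.4% do, and fragments with several alignments were not counted, so both levels are uncertain. Among the other subunits Eif3h and Eif3m share the most words with other genes, 29.4% and 26.2%, so their places in the order are uncertain too. With the length of the coding transcripts Eif3e and Eif3h still led, at means of 646 and 563 TPM, and Eif3k came next at 425 TPM. On that length Eif3i stood at 338 TPM, and Eif3l was the lowest of the 12 at 147 TPM. The order below Eif3h, and which subunit is lowest, therefore rest on the exon model.

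**Figure D2:**
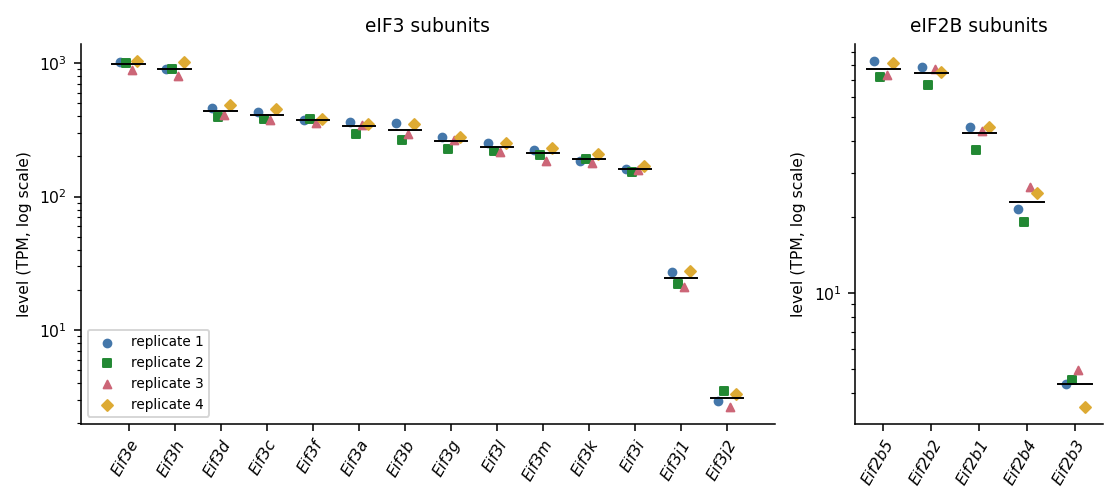
Level of each eIF3 subunit gene (left) and eIF2B subunit gene (right) in TPM on log axes, with 1 point per library and the mean as a bar, ordered by mean. Eif3e and Eif3h lie above the other eIF3 subunits and Eif3j1 and Eif3j2 below them, while Eif2b3 lies below the other eIF2B subunits.

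Of the paired helicase genes of the cap complex, Eif4a1 (mm10 chr11:69666936-69672423) was the main one. It stood at 909, 770, 828 and 869 TPM, and Eif4a2 (chr16:23107444-23114136), whose product can take its place in the cap complex, at 242, 199.8, 321 and 184 TPM. Eif4a2 was highest in replicate 3, where Eif4a1 was not, so Eif4a1 exceeded Eif4a2 by 2.58 times in replicate 3 and by 3.76, 3.85 and 4.73 times in replicates 1, 2 and 4. Eif4a1 held 78.3 ± 4.41% of their summed TPM. Eif4a2 had the widest spread among the translation factor genes of at least 100 TPM, with a coefficient of variation of 25.9%, but did not vary beyond the trend for its abundance in edgeR's deviance test (adjusted p = 1.0). Eif4a3, the related helicase of the exon junction complex, stood at 319 ± 12.2 TPM. Of the 31-base words of Eif4a1 31.1% also occur in other genes, 25.6% in the pseudogene Eif4a-ps4, as do 14.9% of those of Eif4a2 and 31.2% of those of Eif4a3, so these levels are uncertain.

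The level of the cap binding protein Eif4e depended on the length it was divided by. Per length of all annotated exons, Eif4e stood at 60.04, 48.9, 44.8 and 59.7 TPM, and Eif4e2, a cap binding protein that represses translation, at 55.9, 59.4, 57.6 and 55.0 TPM. Their ranges overlapped, and each gene was the higher one in 2 libraries. With the length of the coding transcripts Eif4e lay above Eif4e2 by 0.76 on the log2(TPM + 1) scale on average, so their order rests on the exon model. Eif4e3, a further relative, stood at 28.4 ± 2.08 TPM. The helicase gene Eif4a1 exceeded Eif4e by 15.98 ± 1.74 times and the median eIF3 subunit exceeded it by 5.46 ± 0.522 times. With the length of the coding transcripts Eif4e stood at 259 TPM and these ratios were 5.15 ± 0.561 and 1.09 ± 0.0863.

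Among the scaffolds, Eif4g2, whose product lacks the eIF4E binding part, was the highest at 708, 681, 644 and 683 TPM. Eif4g1, the main cap complex scaffold, stood at 357, 296, 348 and 350.2 TPM, and Eif4g3 at 60.7, 60.5, 76.6 and 59.8 TPM. Eif4g2 exceeded Eif4g1 by 2.02 ± 0.193 times and Eif4g1 exceeded Eif4g3 by 5.30 ± 0.676 times, each in all 4 libraries. With the length of the coding transcripts the means were 2.68 and 3.63 times, so the size of each ratio rests on the exon model. The helicase cofactors Eif4b and Eif4h stood at 425 ± 18.1 and 179 ± 9.74 TPM.

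Nearly all mRNA for the eIF4E binding proteins, the mTOR-controlled inhibitors of cap binding, came from 1 gene. Eif4ebp2 stood at 157, 182, 145 and 146 TPM, and Eif4ebp1 at 1.21, 1.45, 1.08 and 1.83 TPM on 116 counts in all. Eif4ebp2 exceeded Eif4ebp1 by 79.7 to 134 times and held 97.8 ± 0.602% of the TPM of the 3 inhibitor genes. The ratio of Eif4ebp2 to Eif4e was 3.00 ± 0.588, and 0.635 ± 0.125 with the length of the coding transcripts, so which of them was higher is not settled. Eif4ebp3 stood at 1.66, 1.65, 3.37 and 1.74 TPM on 57 counts in all. Of its exons 67.3% lie under exons of Ankhd1 on the same strand, where fragments were not counted, so its level is uncertain. Eif4enif1, which shuttles eIF4E into the nucleus, stood at 44.3 ± 4.04 TPM.

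Eif5a, whose hypusine-bearing product helps ribosomes past difficult peptide bonds, stood at 1499, 1466, 1252 and 1513 TPM. Its relative Eif5a2 stood at 10.6, 9.79, 7.85 and 7.80 TPM. Eif5a exceeded it by 141 to 194 times, or by a mean of 298 times with the length of the coding transcripts, and held 99.4 ± 0.0819% of their TPM. The genes of the enzymes that make hypusine, Dhps and Dohh, stood at 43.7 ± 4.38 and 38.8 ± 1.09 TPM. Eif6, which keeps ribosomal subunits apart, stood at 186 ± 12.2 TPM.

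The elongation factors were led by Eef1a1 (mm10 chr9:78478449-78489151), at 14645, 15785, 13177 and 15369 TPM, rank 2 among protein coding genes by mean TPM. It exceeded Eef1a2 by at least 69336-fold in each library, with Eef1a2 set at 3 counts per library. Of the 31-base words of Eef1a1 49.8% also occur in other genes, 27 in number, so its level is uncertain. Eef2 (chr10:81176631-81182498) stood at 4266, 4395, 4130 and 4596 TPM, rank 17, and Eef1a1 exceeded it by 3.39 ± 0.167 times. With the length of the coding transcripts that ratio was 4.38 ± 0.216. Of the words of Eef2 21.2% also occur in other genes, so its level is uncertain too. The exchange complex of eEF1A was uneven. Eef1b2 stood at 1328, 1311, 1170 and 1416 TPM, Eef1g, a structural subunit, at 626 ± 34.7 TPM and Eef1d at 83.3, 79.0, 87.1 and 93.0 TPM. The level of Eef1g is as uncertain as that of Eef1a1, since 47.6% of its words occur elsewhere, 44.1% in Gm4366. Eef1b2, the smaller exchange subunit, exceeded Eef1d, the larger one, by 15.3 ± 1.37 times in these libraries. With the length of the coding transcripts Eef1d stood at 199 TPM and the difference was 8.14 times. Eef1e1, a scaffold of the tRNA synthetase complex, stood at 199.9, 163, 138 and 198 TPM, a mean of 175 TPM that became 45.2 TPM with the length of the coding transcripts.

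Genes of the enzymes that modify elongation factors were low. Eef1akmt2 and Eef1akmt1, lysine methyltransferases of eEF1A, stood at 23.1 ± 0.987 and 21.9 ± 2.92 TPM. Eef2kmt, which methylates eEF2, stood at 7.76 ± 0.126 TPM. Eef2k, the kinase that shuts eEF2 off, stood at 1.78, 1.99, 2.66 and 1.397 TPM on 548 counts in all.

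The comparisons between related genes covered 12 pairs. In 11 of them the same gene was the higher one in all 4 libraries, and each of these had p = 0.125 (adjusted p = 0.136), the smallest p that 4 libraries can give in an exact permutation test that flips signs (two-sided). No pair could therefore pass 0.05. Eif4e against Eif4e2 had p = 0.5 in the same exact permutation test, with a mean difference of -0.10 ± 0.25 on the log2(TPM + 1) scale.

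**Figure D3:**
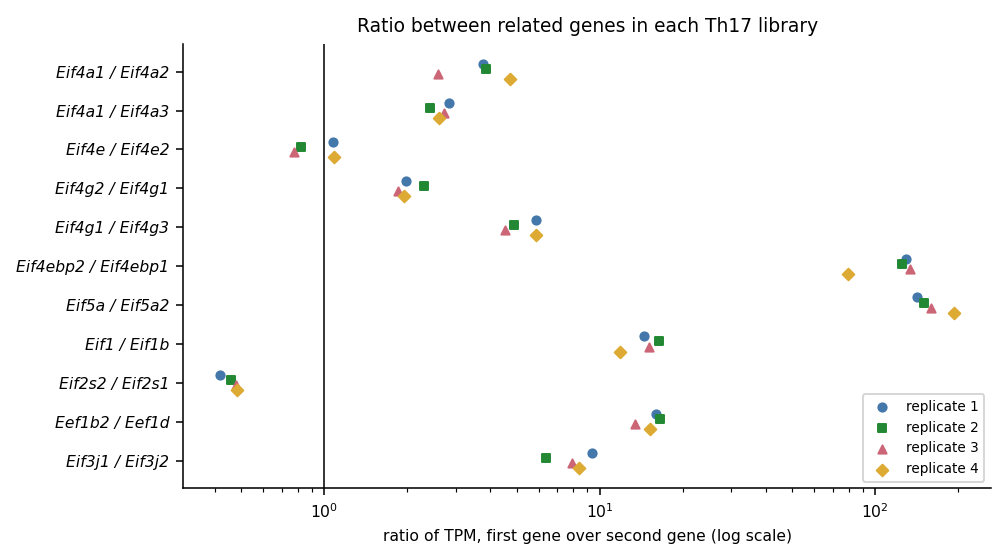
Ratio of TPM of the first over the second gene of each pair on a log axis, 1 point per library, with a line at equal levels; the pair with Eef1a2 is left out because that gene had 0 counts. The points of Eif4e over Eif4e2 lie on both sides of the line, those of Eif2s2 over Eif2s1 below it and those of the other pairs above it, and replicate 3 stands lowest for Eif4a1 over Eif4a2 at 2.58.

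The next comparison asked whether these genes differed between libraries by more than other genes of like abundance. None was called: 0 of the 57 that passed edgeR's expression filter varied beyond its dispersion trend at an adjusted p under 0.05, against 0.813% of all 11567 tested genes. At an unadjusted p under 0.05 there was 1 of the 57 in edgeR, against 692 of all 11567 tested genes. It was Eef1e1, whose adjusted p in edgeR was 0.666. With DESeq2's size factors and dispersion trend there were 0 calls and 2 genes at an unadjusted p under 0.05, against 676 of 11567. The median range of the 57 genes over the libraries was 0.395 on the log2 CPM scale, and that of all tested genes was 0.405. The widest ranges were those of Eif4ebp1 (0.88), Eif4ebp3 (0.80) and Eef2k (0.73), all rare transcripts, and next came Eef1e1 (0.71).

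Although none was called singly, most of the genes deviated in the same libraries. On the TMM-normalized log2 CPM scale 41 of the 57 tested genes were highest in replicate 4, against 25.4% of all tested genes, and 43 were lowest in replicate 3, against 31.9%. The median deviation of the 57 genes from their own means was 0.05, -0.03, -0.19 and 0.15 in replicates 1 to 4, and that of all tested genes lay between -0.0035 and 0.0066. Of the 14 eIF3 genes 13 had their highest value in replicate 4 and 12 their lowest in replicate 3. The same held for Eef1b2, Eef1d, Eef1g and Eef1e1, and for Eif2s1 and Eif2s2. The 5 exceptions that were highest in replicate 3 were Eif4a2, Eif4g3, Eif4ebp3, Eef2k and Eif2d.

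This ordering also appeared in other gene groups, though weakly in some. Of 79 tested cytosolic ribosomal protein genes 55 had their highest value in replicate 4 and 78 their lowest in replicate 3. Of 20 aminoacyl tRNA synthetase genes 12 peaked in replicate 4 and 11 had their lowest value in replicate 3. The lists of other translation genes given below followed less, with 14 of 35 tested genes highest in replicate 4 and 16 lowest in replicate 3. Among them, the 10 genes of mTOR and MNK signalling had 3 and 2. Abundant genes leaned the same way: among 3279 other genes of at least 50 TPM, replicate 4 held the highest value of 34.5% and replicate 3 the lowest value of 50.5%. On the TPM scale the translation factors counted 26 of 57 highest in replicate 4 and 29 of 57 lowest in replicate 3, against 15.3% and 15.1% of all tested genes; that scale sets the median of all tested genes 0.10 higher (log2) in replicate 3. The Th17 markers followed the ordering in part, with 5 of 6 tested markers highest in replicate 4 but 0 lowest in replicate 3. Il17f stood at 10.16, 7.04, 11.7 and 20.8 TPM in replicates 1 to 4. Il17f was called as varying beyond the trend (edgeR adjusted p = 0.0171), the 1 call among these 6 markers, against 0.813% of all tested genes. Of the 6 markers 3 had an unadjusted p under 0.05 in edgeR, against 692 of all 11567 tested genes. The part of this marker variation in the result was not tested. Replicates 3 and 4 had the lowest depths of the 4 libraries and lay at opposite ends of the ordering. In bulk RNA, fewer cells of a kind and less RNA per cell cannot be told apart.

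**Figure D4:**
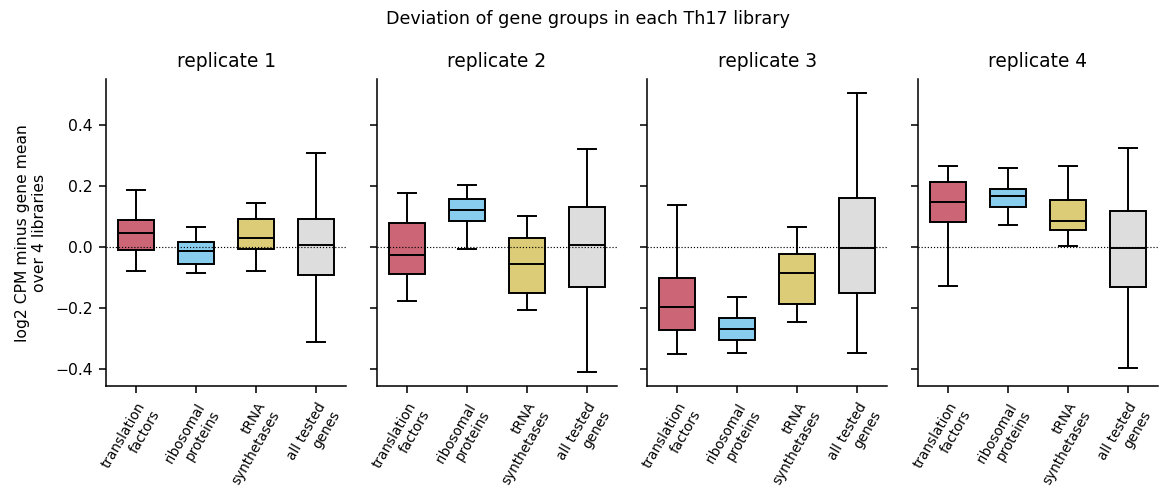
Deviation of each gene from its own mean over the 4 libraries, in TMM-normalized log2 CPM, 1 panel per library; boxes give the median and quartiles and whiskers the 5th and 95th percentiles of the genes in each group. The box of the translation factors lies below 0 in replicate 3 (median -0.19) and above it in replicate 4 (median 0.15), and the box of all tested genes is centred near 0 in each panel.

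Other genes of the translation machinery came from 6 lists with 36 members, all of which reached 1 TPM. Of the 35 tested, 0 varied beyond the trend (edgeR, background 0.813%). While 692 of all 11567 tested genes had an unadjusted p under 0.05 in edgeR, 1 of these 35 did. That gene was Eif2ak2, the eIF2 kinase activated by double-stranded RNA, at 59.2, 37.0, 49.6 and 58.0 TPM (edgeR adjusted p = 0.513). In the list of eIF2 kinases and phosphatase subunits, Ppp1r15a, which directs dephosphorylation of eIF2, led at 312 ± 32.0 TPM, and the kinase gene Eif2ak4 was lowest at 15.5 ± 1.62 TPM. Among genes of mTOR and MNK signalling Mknk2, a kinase of eIF4E, stood at 294 ± 19.2 TPM, the highest per length of all exons, and Mlst8 was lowest at 15.1 ± 2.55 TPM. With the length of the coding transcripts Rheb, the GTPase that activates mTOR, was higher than Mknk2, at 332 against 225 TPM. Pabpc1, the main poly(A) binding protein, stood at 791 ± 23.8 TPM and Pabpc4 at 36.5 ± 1.87 TPM. Of the termination and recycling genes Etf1, the release factor, stood at 634 ± 54.6 TPM and Denr at 17.9 ± 1.60 TPM. The mitochondrial translation factors all lay far below Pabpc1 and Etf1, though Tufm was above Pabpc4 and Denr. They ranged from Tufm, which encodes the mitochondrial elongation factor Tu, at 40.9 ± 3.86 TPM to Mtrf1 at 1.10 ± 0.400 TPM.

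Several translation factor genes carry small nucleolar RNA (snoRNA) genes within their bounds on the same strand. Of the 57 at 1 TPM or more 8 did (14.04%), against 1.83% of 9831 protein coding genes at that level. They were Eif4a2 with 5 snoRNA genes, Eif4a1 with 3, Eef1b2 with 3 annotated records of which 2 overlap each other, Eif3a with 2, and Eef2, Eif4g1, Eif4g2 and Eif5 with 1 each. Their exons overlapped other genes on the same strand over at most 9.63% of their length, in Eif4a2, where fragments were not counted.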

How the data were processed

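Fragment counts per gene were deposited by the authors, made with featureCounts 1.4.6-p4 on GENCODE M13 exons (mm10), paired and reverse stranded, per the file headers; no option to count multi-mapping fragments or those shared by genes was set. The other deposited value used was the exon length. Symbols came from GENCODE M21, matched by identifier for 50376 of 50600 genes. TPM and CPM were computed here. Variation between libraries was tested on all 11567 filtered genes with edgeR 4.0.16 (R 4.3.3; filterByExpr, TMM, intercept only; deviance at the trended dispersion, chi-square with 3 degrees of freedom, Benjamini-Hochberg), checked on simulated counts, with DESeq2 1.42.0 as an alternative. With 1 group there was no test between groups. Pairs used an exact sign-flip test with pseudocount 1. Shared 31-base words were counted in M21 transcripts. Limits for 0 counts (3 counts) cover counting error only. Python 3.11.15 did the rest. Members and lists were chosen with earlier results of these data known. Genes named with values were the highest and lowest of each role list, both genes of each pair, all eIF2, eIF2B and eIF3 subunits, those under 1 TPM, the 3 widest ranges, and the highest, lowest and varying genes of the pathway lists; Eif5, Eif1a, Eif1ad, Eif4e3, Eef1g, Eif4enif1, Eef2kmt, Eef1akmt1, Eef1e1, Rheb and the marker genes were added after their values were seen. Members highest or lowest in 1 library were also counted after the data were seen.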

Additional observations from a re-analysis of the deposited data

Results flagged for a closer look

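In 3 of the 57 translation factor genes with counts, 1 of the 4 libraries stood apart from the other 3 by Dixon's ratio, the gap to the nearest library over the whole range, for which chance alone marks about 1 in 20 groups. Eif4g3 was higher in replicate 3, at 76.6 TPM against 59.8 to 60.7 TPM in the others (ratio 0.948). Eif4ebp3 was higher in replicate 3, at 3.37 TPM against 1.65 to 1.74 TPM in the others (ratio 0.947), on 57 counts in all. Eif4g1 was lower in replicate 2, at 296 TPM against 348 to 357 TPM in the others (ratio 0.857). The ratio was taken in TPM alone, the scale that sets replicate 3 higher. On the TMM-normalized log2 CPM scale the deviations of Eif4g1 were 0.09, -0.14, -0.07 and 0.12 in replicates 1 to 4. Replicates 2 and 3 were thus both below its mean. Those of Eif4g3 were -0.07, -0.04, 0.14 and -0.03, and those of Eif4ebp3 -0.23, -0.21, 0.56 and -0.12.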

How the results depend on the processing

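No paired analysis was possible because there is 1 group. No translation factor gene was called under any of the 9 other settings or left-out libraries, while the count over all genes, 94, was 256 with a common dispersion and 35 to 60 without 1 replicate. The median gene of the 60 moved to 7.23 with only nuclear protein coding genes in the total, 7.32 with only genes passing the filter and 7.31 with the length of the coding transcripts. That length gave a subunit spread of 5.47 for eIF2B and turned Eif4e over Eif4e2 to 0.76 and the ratio of Eif4ebp2 to Eif4e to 0.635; eIF3 had 6.16 without Eif3j1 and Eif3j2. The genes highest in replicate 4 were 26 on the TPM scale, 36 to 42 under 3 other scalings and 42 to 46 without 1 replicate. Of all tested genes, 15.3%, 19.9 to 26.5% and 30.5 to 36.4% were highest there under the same settings. Coding transcript length, TPM scale, the eIF3j choice and those counts were chosen after seeing the data. Causes were not tested. Eif4ebp1 and Eif4ebp3 rest on 116 and 57 counts.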
